A study of Mus musculus with 29 samples.

Results

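miR-22-3p (mmu-miR-22-3p), the dominant arm of the miR-22 hairpin, was followed across serum and the tibialis anterior, a fast muscle at the front of the shin, in C57BL/6 mice. It is 1 of 1183 mature miRNAs counted in 29 small RNA libraries, and was chosen by its mean share of counts over the 15 muscle libraries, which ranked among the 5 highest. The groups were old serum (4 libraries, 24 months of age), disuse serum (5, 6 months, a disuse-induced atrophy model), young serum (5, 6 months, control), and old, disuse and young muscle with 5 libraries each and the same ages and states. All mice carried the same strain background, and no transgene or drug is named. How disuse was imposed and for how long is not given in the sources used here, and the labels do not tie a serum sample to a muscle sample. Numbered libraries were taken as separate samples. No label says that each came from its own animal, so the spread behind the p-values may be partly technical.

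A miRNA hairpin is cut to a short duplex, whose arms are named 5p and 3p. The arm that is loaded into an Argonaute protein pairs through its seed, bases 2 to 8, with messenger RNAs and represses them, and the other arm is mostly degraded. In mice miR-22-3p is abundant in heart and skeletal muscle. It is known from mouse heart for its part in hypertrophy, with Sirt1 and Hdac4 among its targets. Serum miRNAs are carried in vesicles and protein complexes and come from many organs and from blood cells.

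The sequences below are RefSeq's (GRCm38.p6, the build that mm10 names) and show the counted arm, the other arm and the hairpin that yields both. Capitals mark the seed in the mature arms and the 2 mature arms in the hairpin.
miR-22-3p: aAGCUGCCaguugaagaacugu
miR-22-5p: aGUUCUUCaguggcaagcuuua
Mir22 hairpin: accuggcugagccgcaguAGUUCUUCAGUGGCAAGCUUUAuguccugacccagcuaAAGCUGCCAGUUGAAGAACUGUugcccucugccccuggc

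Mir22 lies on the plus strand at chr11:75463716-75463810, inside exon 2 of both GENCODE M21 transcripts of its non-coding host gene Mir22hg. Within the hairpin of 95 bases, miR-22-5p occupies positions 19 to 40 and miR-22-3p positions 57 to 78, counted from the 5′ end. The longest run of Watson-Crick complement between the arms was 9 bases, positions 1 to 9 of the 5p arm against 12 to 20 of the 3p arm, so the seed of the 5p arm lies opposite the tail of the 3p arm. The seed AGCUGCC, whose matching site in a messenger RNA is GGCAGCU, was held by 1 of 1679 RefSeq mouse mature miRNAs, miR-22-3p itself.

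Library totals were 45176 to 309133 counts in serum and 254624 to 5943445 counts in muscle. The sources stood apart as their labels say. The 6 skeletal muscle markers summed to 0.0636% to 0.465% of counts in serum libraries and to 37.7% to 52.4% in muscle libraries, and all 6 were counted in each muscle group. The 5 red cell markers summed to 14.1% to 36.7% in serum and 4.11% to 9.26% in muscle. This sum includes miR-486-5p, which is found in muscle as well and averaged 22.98% in serum and 5.93% in muscle. The red cell marker miR-451a averaged 1.0% in serum and 0.00468% in muscle, so the muscle sum is no measure of red cells. The hepatocyte marker miR-122-5p reached at most 0.284% in serum and 0.000598% in muscle. In bulk samples like these, fewer cells of a type and less RNA per cell cannot be told apart.

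miR-22-3p took a similar share of all counts in both sources, 4.26% ± 1.63 in serum (SD, n = 14) and 4.72% ± 0.668 in muscle (SD, n = 15). In muscle it was the third most abundant miRNA by mean share, and it ranked between 2 and 5 in each of the 15 libraries. In serum it was the sixth, with ranks between 3 and 7. Because a high share in muscle is what chose it, these levels are a description with no test. At the edge of the choice, miR-3107-5p at rank 5 averaged 2.75% of muscle counts and miR-26a-5p at rank 6, the next below, 2.69%.

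In old serum, miR-22-3p took 5.64%, 3.06%, 4.91% and 4.81% of counts in libraries 1 to 4. In disuse serum it took 4.72%, 2.30%, 3.16%, 5.22% and 3.81% in libraries 1 to 5. In young serum it took 7.73%, 3.76%, 6.05%, 1.98% and 2.46%. Young serum thus held both the highest and the lowest serum values, 3.9-fold apart, and the other serum groups lay between them. The 95% Clopper-Pearson intervals of those extremes were 7.59% to 7.87% and 1.93% to 2.03%. Such intervals take in counting error alone and treat each read as a separate molecule. Amplified reads without molecular identifiers may copy the same molecule, so the intervals may be too narrow.

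In old muscle, miR-22-3p took 5.04%, 4.74%, 4.67%, 3.84% and 3.85% of counts in libraries 1 to 5. In disuse muscle it took 3.99%, 5.44%, 4.62%, 4.52% and 5.33%. In young muscle it took 5.39%, 5.78%, 3.64%, 4.59% and 5.34%. The muscle groups overlapped throughout, and the highest library, young muscle 2, exceeded the lowest, young muscle 3, by 1.58-fold. The intervals of these libraries were 5.75% to 5.81% and 3.59% to 3.70%.

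**Figure D1:**
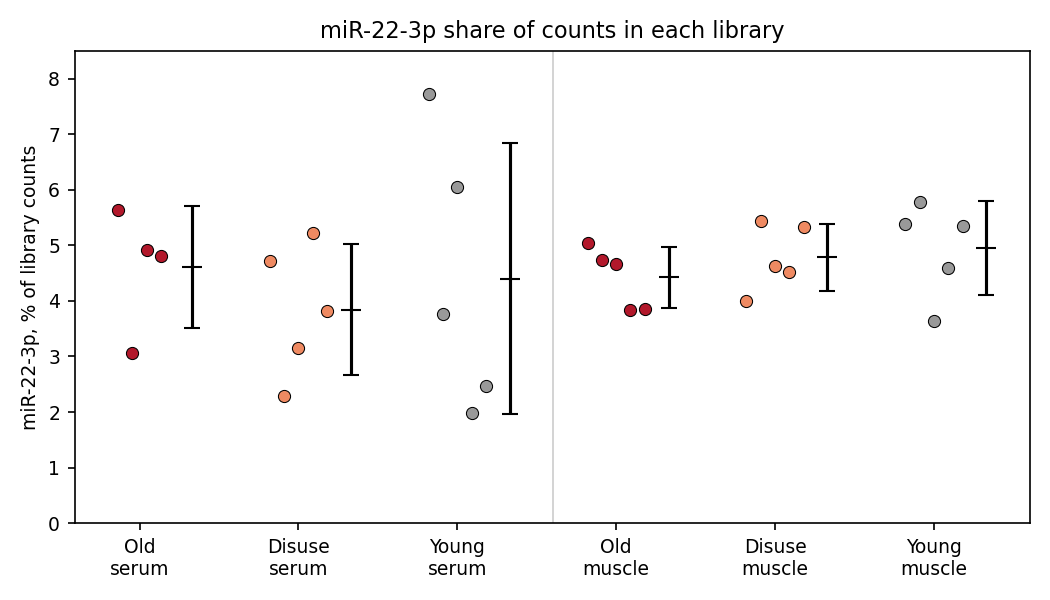
miR-22-3p as a percentage of library counts (vertical axis) in each library of the 6 groups (horizontal axis), with points for libraries and black bars for the mean ± SD. Serum libraries spread from 1.98% to 7.73% and muscle libraries from 3.64% to 5.78%, and the groups overlap.

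Ordered by mean share, the groups ran from young muscle (4.95% ± 0.846, SD, n = 5) through disuse muscle (4.78% ± 0.604, n = 5), old serum (4.61% ± 1.09, n = 4), old muscle (4.43% ± 0.550, n = 5) and young serum (4.4% ± 2.44, n = 5) to disuse serum (3.84% ± 1.17, n = 5). The ranges of neighbours in this order overlapped in every case, and neighbouring means were 0.0315 to 0.556 percentage points apart, less than either SD. The coefficient of variation was 23.7%, 30.6% and 55.5% in old, disuse and young serum, and 12.4%, 12.6% and 17.1% in old, disuse and young muscle. Among the 50 most abundant miRNAs of each source, the mean within-group variation of miR-22-3p was 36.6% in serum, where the median miRNA had 31.2%, and 14.05% in muscle, where the median was 18.6%.

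The other abundant muscle miRNAs ranged from far lower in serum to far higher. A nearly even share was not particular to miR-22-3p, since miR-92a-3p (1.96% in serum, 1.82% in muscle, a ratio of 1.07) and miR-27b-3p (1.53% in serum, 1.63% in muscle, a ratio of 0.94) were closer to 1. miR-133a-3p, a myomiR and the most abundant miRNA of muscle by mean share, averaged 0.243% of counts in serum and 45.8% in muscle. Its serum to muscle ratio was 0.0053. miR-378a-3p, which lies in an intron of the metabolic regulator gene Ppargc1b, averaged 0.173% in serum and 4.09% in muscle, a ratio of 0.0422. miR-486-5p, found in muscle and in maturing red cells, ran the other way with 22.98% in serum and 5.93% in muscle, a ratio of 3.88. miR-3107-5p, whose mature sequence closely matches that of miR-486-5p so that the authors' counting could have split reads between them, had a ratio of 4.23. The miRNAs above miR-22-3p in serum were miR-486-5p and miR-3107-5p (11.65% of serum counts), then miR-10b-5p (9.795% in serum, 0.456% in muscle), miR-191-5p (7.21% in serum, 1.32% in muscle) and miR-10a-5p (7.17% in serum, 0.394% in muscle).

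The ratio for miR-22-3p was 0.902, and it was 1.04 for the old groups, 0.803 for the disuse groups and 0.888 for the young groups. Of the serum libraries, 2 of 4 old, 2 of 5 disuse and 1 of 5 young ones lay within the range of the muscle libraries of their own age and state. Of the 50 most abundant muscle miRNAs, 15 had a ratio above 1 and the median was 0.49, and miR-22-3p stood in position 18 from the top. These ratios depend on the denominator, since miR-133a-3p alone fills much of each muscle library. When the 5 most abundant other muscle miRNAs were left out of the totals, miR-22-3p took 6.58% ± 2.05 of the remaining counts in serum (n = 14) and 12.3% ± 2.26 in muscle (n = 15), a ratio of 0.535. With TMM factors, which scale libraries on the bulk of miRNAs, fitted over all 29 libraries, it was 0.686.

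**Figure D2:**
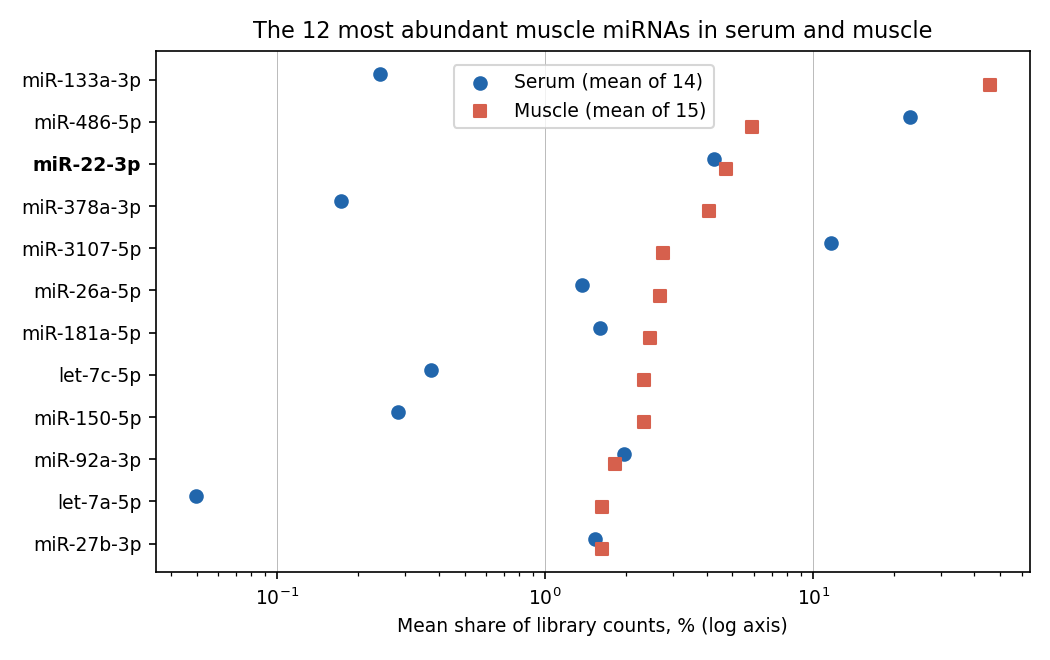
Mean share of library counts (horizontal log axis, %) in serum (circles, 14 libraries) and in muscle (squares, 15 libraries) for the 12 most abundant muscle miRNAs (rows). For miR-22-3p the symbols stand close together at 4.26% and 4.72%, whereas for miR-133a-3p they stand at 0.243% and 45.8%.

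Setting old beside young muscle asks whether miR-22-3p differs between 24 and 6 months of age, a contrast that did not enter its choice. In CPM, counts relative to library totals scaled with TMM factors, old muscle libraries 1 to 5 had 54050, 43010, 45370, 33570 and 41630 CPM, and young muscle libraries had 52700, 58780, 34070, 43040 and 56400 CPM. Of the old libraries, 1 of 5 lay above the young median, and the ranges overlapped. The means were 43527 ± 7367 CPM in old muscle and 48999 ± 10278 CPM in young muscle (SD, n = 5 each). The log2 fold change was -0.17 ± 0.17 (SE), with edgeR's quasi-likelihood adjusted p = 0.583. miR-22-3p therefore did not pass the threshold of 0.05, which 5.87% of the 341 tested miRNAs did (1.17% higher and 4.69% lower in old muscle). The 95% interval of the fold change ran from 0.699 to 1.13.

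In disuse muscle, miR-22-3p had 40240, 59500, 47200, 45630 and 57260 CPM in libraries 1 to 5, with 2 of 5 above the young median. Its mean of 49965 ± 8144 CPM in disuse muscle lay beside 48999 ± 10278 CPM in young muscle (SD, n = 5 each). The log2 fold change was 0.03 ± 0.17 (edgeR adjusted p = 0.986, with an interval of the fold from 0.802 to 1.3), and 0.293% of tested miRNAs passed, all lower in disuse. Its sign turned under 5 other scalings or tests, where values ran from -0.16 to -0.02, and without disuse muscle 2 or 5 or young muscle 3. Between old and disuse muscle, which differ in age as well as in disuse, the log2 fold change was -0.20 ± 0.17 (edgeR adjusted p = 0.591, interval of the fold 0.685 to 1.11, 1 of 5 old libraries above the disuse median), where 3.52% passed (0.587% higher and 2.93% lower in old muscle). Both comparisons with young muscle use the same 5 young libraries.

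In serum, old libraries 1 to 4 had 50730, 42140, 42360 and 47840 CPM, disuse libraries 1 to 5 had 40210, 24950, 38030, 44040 and 38610 CPM, and young libraries had 56890, 38470, 50760, 28140 and 28350 CPM. All 4 old libraries lay above the young median but inside the young range. The means were 45767 ± 4232 CPM in old (n = 4) and 40524 ± 13024 CPM in young serum (n = 5), a log2 fold change of 0.18 ± 0.25 (edgeR adjusted p = 0.733, interval of the fold 0.784 to 1.63), where 9.7% of the 165 tested miRNAs passed (2.42% higher and 7.27% lower in old serum). Disuse serum, at 37168 ± 7220 CPM (n = 5), differed from young serum by -0.12 ± 0.24 on the log2 scale (edgeR adjusted p = 0.964, interval of the fold 0.649 to 1.3, 3 of 5 above the young median). That value turned positive, to 0.14, without young serum 1.

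No miRNA passed between disuse and young serum in edgeR (0%), DESeq2 or limma-voom, while 20 had an unadjusted edgeR p under 0.05. Old against disuse serum gave 0.30 ± 0.25 for miR-22-3p (edgeR adjusted p = 0.713, interval of the fold 0.855 to 1.77), with 4 of 4 old libraries above the disuse median and overlapping ranges. There 2.42% of miRNAs passed (1.82% higher and 0.606% lower in old serum). An exact permutation test of log2 CPM gave an unadjusted p = 0.0556 for this comparison.

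The change with age was 0.46 ± 0.31 higher on the log2 scale in serum than in muscle (edgeR interaction over all 29 libraries, adjusted p = 0.505), with a 95% interval from -0.16 to 1.09. The change with disuse differed between serum and muscle by 0.08 ± 0.30 (adjusted p = 1 after rounding, interval -0.53 to 0.69), a value whose sign turned under other scalings and without some libraries. Of the 241 miRNAs tested over both sources, 0.83% passed for age. For disuse 0% passed in edgeR, with 24 at an unadjusted p under 0.05 and 0 in both DESeq2 and limma-voom.

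**Figure D3:**
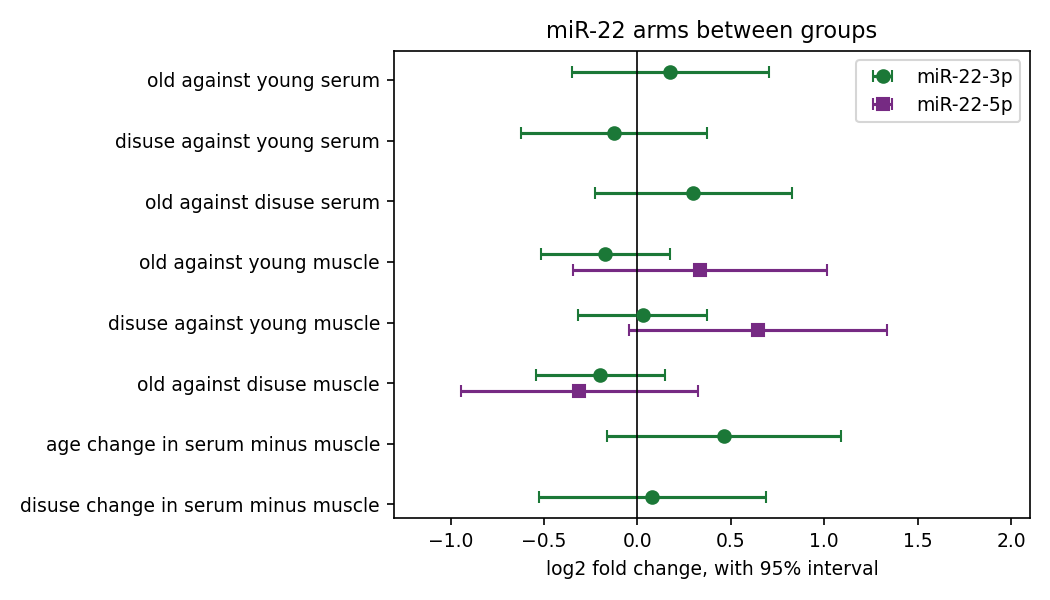
Log2 fold changes (horizontal axis) of miR-22-3p (circles) and, in muscle, of miR-22-5p (squares) with 95% intervals for each comparison (rows), the lowest 2 rows being differences of log2 fold changes between serum and muscle. All intervals cross 0, and the widest for miR-22-3p between groups of a source lies in serum.

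miR-22-5p, the other arm of the hairpin, was a minor product in every library. Summed over libraries it had 25 reads beside 93007 of miR-22-3p in serum, 0.0269% of both arms with a 95% Clopper-Pearson interval of 0.0174% to 0.0397%, and 1541 beside 1632118 in muscle, 0.0943% with an interval of 0.0897% to 0.0992%. By library it was at 0 in 6 of 14 serum libraries, among them 3 of 4 old ones, and reached at most 7 counts, in disuse serum 4. A serum count of 0 allows up to 11.5 to 66.4 CPM in the old libraries, 3 counts of the total. The share of both arms ranged from 0% to 0.0679% in serum libraries. In muscle it ranged from 0.0284% in young muscle 4 to 0.129% in old muscle 1, so the sources overlapped. The intervals of the summed reads leave out this spread between libraries. As the 3p level in muscle entered the choice, the difference between sources in this share was not tested.

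In muscle, where miR-22-5p passed the filter on low counts, old libraries 1 to 5 had 387, 60, 133, 33 and 103 counts or 69.8, 27.1, 45.8, 21.4 and 33.4 CPM. Disuse libraries had 84, 332, 14, 71 and 120 counts or 39.2, 75.3, 56.1, 31.2 and 48.9 CPM. Young libraries had 12, 67, 15, 7 and 103 counts or 43.7, 31.4, 28.7, 12.2 and 42.0 CPM. The groups overlapped, and the lowest value, in young muscle 4, rests on 7 counts. Old against young muscle gave a log2 fold change of 0.34 ± 0.33 (edgeR adjusted p = 0.583), disuse against young muscle 0.65 ± 0.33 (0.590, with 4 of 5 disuse libraries above the young median), and old against disuse muscle -0.31 ± 0.31 (0.674). These values rest on few libraries. Without old muscle 1, old against young was 0.02 and old against disuse -0.62, and without disuse muscle 2, disuse against young was 0.40 and old against disuse -0.07. Over all libraries left out in turn they ran from 0.02 to 0.55, from 0.40 to 0.82 and from -0.62 to -0.07 in the same order of comparisons.

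The ratio of the arms does not depend on how libraries are scaled. On the log2 scale, with 0.5 added to each count, it averaged 10.2 ± 0.438 in old, 10.00 ± 0.369 in disuse and 10.7 ± 0.639 in young muscle (SD, n = 5 each). Disuse muscle was 0.66 below young muscle (exact two-sided permutation p = 0.0794, adjusted p = 0.476 over the 6 comparisons made), and old muscle 0.45 below young muscle (exact p = 0.254, adjusted p = 0.486). Without young muscle 4, the library with 7 counts of miR-22-5p, these differences were -0.40 for disuse and -0.19 for old, and without old muscle 1 the difference for old was -0.29. In serum the mean was 12.5 ± 1.32 in old (n = 4), 12.2 ± 1.50 in disuse (n = 5) and 11.4 ± 1.39 in young (n = 5), and its exact permutation p-values were 0.254 to 0.714. None of the 6 comparisons passed, where the smallest p that these group sizes allow is 0.00794.

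**Figure D4:**
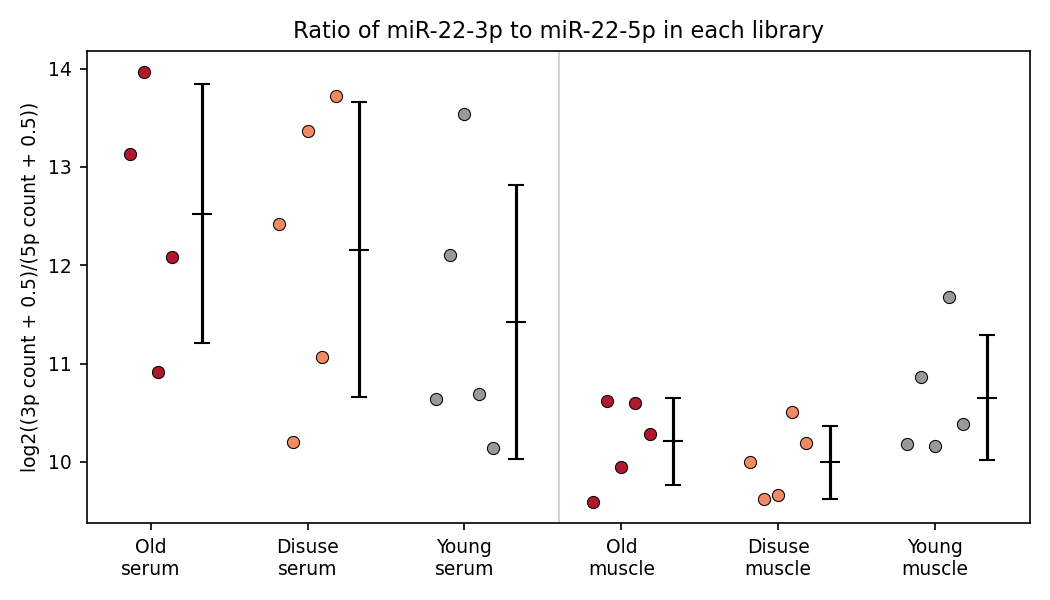
Log2 ratio of miR-22-3p to miR-22-5p counts, with 0.5 added to each (vertical axis), in each library of the 6 groups (horizontal axis), with black bars for the mean ± SD. Muscle libraries lie between 9.59 and 11.7, and serum libraries, all with 0 to 7 reads of the 5p arm, between 10.1 and 13.96, where the 6 libraries at 0 reads are placed by the added 0.5.

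Across the 15 muscle libraries the levels of both arms were related by rank but missed the threshold by Pearson's r after adjustment, with r = 0.59 (permutation p = 0.0185, adjusted p = 0.0555) and rho = 0.66 (permutation p = 0.00974, adjusted p = 0.0292) on log2 CPM, adjusted over 3 relations. Without the 2 libraries farthest from the median of miR-22-3p, old muscle 4 and young muscle 3, r was 0.52. By r, miR-22-5p stood at position 43 of the 340 miRNAs ranked by likeness to miR-22-3p in muscle, so the other arm was not among its closest. With library totals, miR-22-3p had r = 0.32 and rho = 0.40 in muscle (permutation p = 0.239 and 0.138, adjusted p = 0.358 and 0.207, r = 0.64 without the 2 libraries farthest from the median total). In serum these were r = -0.18 and rho = -0.20 (permutation p = 0.540 and 0.481, both also after adjustment, r = -0.35 without 2 libraries). These relations pool 3 groups, each of which holds too few libraries for a value of its own. Depth differed between the muscle groups, with median totals of 2825032 counts in old, 2298437 in disuse and 535754 in young muscle, and after every library was thinned to the shallowest of its source the log2 fold changes of miR-22-3p were -0.17 for old and 0.0002 for disuse against young muscle (edgeR adjusted p = 0.609 and 0.999).

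The miRNA whose level followed miR-22-3p most closely differed between the sources. Likeness was Pearson's r of log2 CPM, and the 5 highest of all tested miRNAs are named. They were chosen for that value, so no p is given, and all share library depth and scaling. In serum, over 14 libraries and 164 miRNAs, they were miR-378a-3p (r = 0.87, rho = 0.86), miR-29c-3p (0.82, 0.79), miR-29a-3p (0.78, 0.75), miR-148a-5p (0.74, 0.73) and miR-378d (0.72, 0.77). In muscle, over 15 libraries and 340 miRNAs, they were miR-27a-3p (r = 0.87, rho = 0.86), miR-143-3p, a smooth muscle miRNA (0.81, 0.80), miR-542-5p (0.80, 0.77), miR-101b-3p (0.79, 0.71) and miR-98-5p, of the let-7 family (0.78, 0.74). The median r over all miRNAs was 0.04 in serum and 0.06 in muscle. No miRNA stood among the 5 in both sources. Some of these values rest on few counts. miR-542-5p had 2 counts in disuse muscle 3 and 3 counts in young muscle 1, 3 and 4. miR-148a-5p had 1 count in old serum 2, disuse serum 2 and young serum 5. miR-378d had 1 count in disuse serum 2 and young serum 5.

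In serum the leading pair moved together library by library. miR-378a-3p had 2463, 1620, 1545 and 2001 CPM in old libraries 1 to 4, then 1901, 1144, 1510, 1502 and 1595 CPM in disuse libraries 1 to 5, and 2088, 1336, 2134, 947 and 1372 CPM in young libraries 1 to 5. As for miR-22-3p, young serum 1 and 3 and old serum 1 were high, and young serum 4 and disuse serum 2 were low. Without young serum 4 and disuse serum 2, r was 0.79. Taking deviations from the group means, r was 0.85, so the likeness lay within the groups. miR-486-5p, named after its values were seen, stood near the other end in serum, at position 161 of 164. It had r = -0.70 and rho = -0.77, and r = -0.67 without the same 2 libraries. miR-451a, another of the red cell markers, stood at position 70 (r = 0.12, rho = 0.08). On deviations from group means, r was -0.69 for miR-486-5p and 0.64 for miR-451a. miR-486-5p averaged 22.98% of serum counts. Shares of a library's counts are bound to a fixed sum, while r was taken on TMM-scaled log2 CPM. The part of this bound in the negative r was not tested.

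In muscle, miR-27a-3p, which represses the fat cell regulator Pparg, had 770, 523, 598, 395 and 395 CPM in old libraries 1 to 5. In disuse libraries it had 536, 825, 509, 571 and 630 CPM, and in young libraries 528, 853, 429, 485 and 779 CPM. Old muscle 1, disuse muscle 2 and young muscle 2 and 5 were high for both miRNAs, and old muscle 4 and young muscle 3 were low. Old muscle 5, also low for miR-27a-3p, had 41630 CPM of miR-22-3p, below the mean of its group. Without old muscle 4 and young muscle 3, r was 0.83, and on deviations from group means 0.86. miR-143-3p belongs to the fibroblast and smooth muscle markers, 4 of whose 5 listed members were counted, and their summed share ran from 1.09% to 5.24% in old, 1.26% to 2.01% in disuse and 1.36% to 2.00% in young muscle. Their part in the likeness was not tested.

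The mature sequences of 4 of the like miRNAs, the leading one in muscle, the miR-29 pair and the let-7 family member, are shown with the seed in capitals, to set their seeds beside that of miR-22-3p.
miR-29c-3p: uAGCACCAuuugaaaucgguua
miR-29a-3p: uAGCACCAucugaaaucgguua
miR-27a-3p: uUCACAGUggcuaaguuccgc
miR-98-5p: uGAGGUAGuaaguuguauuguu
miR-29a-3p and miR-29c-3p share a seed with each other. None of the 4 has the seed AGCUGCC, which was given beforehand, since miR-22-3p alone holds it among RefSeq mouse mature miRNAs.

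**Figure D5:**
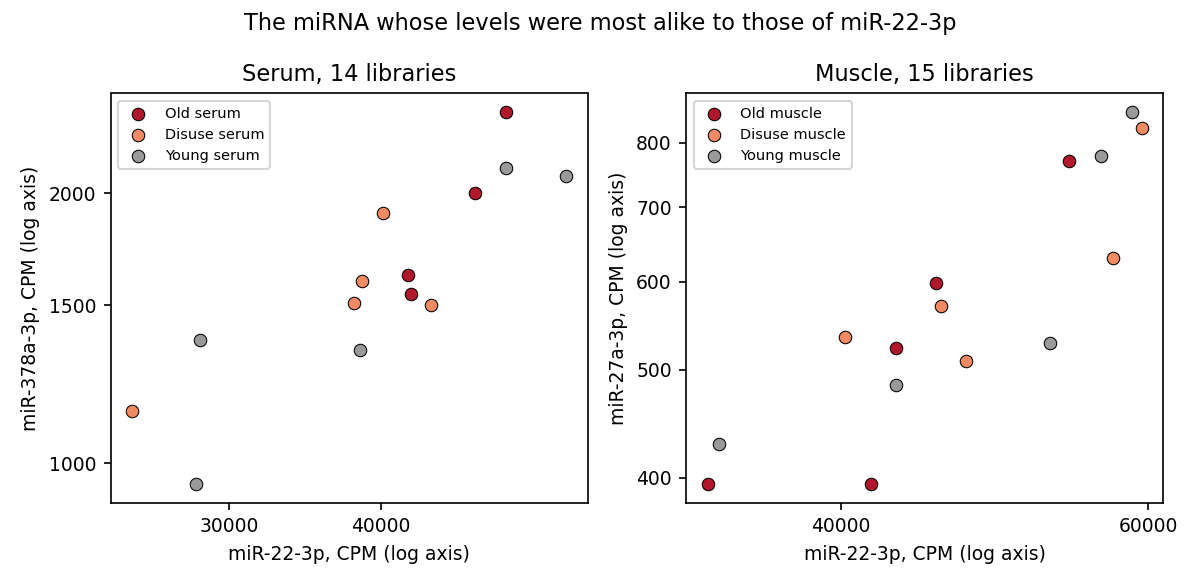
CPM of the miRNA most alike to miR-22-3p (vertical log axis), miR-378a-3p in serum (left) and miR-27a-3p in muscle (right), against CPM of miR-22-3p (horizontal log axis), a point per library and a colour per group. The points of all 3 groups mix along the trend in both panels, with r = 0.87 in each.

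miRNAs listed for a part in hypertrophy or atrophy of striated muscle, as miR-22-3p has in mouse heart, did not pass in edgeR in muscle. Of the 16 listed, 14 were tested there. None passed in edgeR between old and young, where 5.87% of all tested miRNAs did, and 2 had an unadjusted p under 0.05, against 73 of 341 over all. DESeq2 called 0 and limma-voom 1, miR-182-5p, which represses Foxo3 in muscle cells and had an edgeR log2 fold change of 0.85 (adjusted p = 0.112). The median was 0.15, against -0.01 over all. miR-378a-3p was at 0.29, miR-27b-3p at -0.10 and miR-23a-3p, a repressor of the atrophy ubiquitin ligases, at 0.26 (adjusted p = 0.226, 0.717 and 0.456). Between disuse and young muscle 0 of 14 passed with any of the 3 tools and 0 had an unadjusted p under 0.05, against 29 of 341 over all (median -0.005, against -0.002 over all). In serum 0 of 11 passed in each of the 3 comparisons with all 3 tools, with 0 at an unadjusted p under 0.05 between old and young, 1 between disuse and young and 2 between old and disuse. Over all 165 miRNAs tested in serum these numbers were 38, 20 and 17.

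Of 10 striated muscle miRNAs, 9 were tested in muscle and 4 in serum, and none passed in any of the 6 comparisons with edgeR, DESeq2 or limma-voom. Among them miR-1a-3p was low, at 645 CPM in old, 730 in disuse and 927 in young muscle. miR-133a-3p had 456970, 497710 and 427210 CPM in the same order. Between old and young muscle 3 of 9 had an unadjusted edgeR p under 0.05, against 73 of 341 over all, and the median was -0.46, against -0.01 over all. These were miR-486-5p (-0.50), miR-3107-5p (-0.46, the median itself) and miR-133a-5p (-0.60). As miR-486-5p and miR-3107-5p may share reads, they may be the same signal counted again. Between disuse and young muscle 2 of 9 had such a p, against 29 of 341 (median -0.15), between old and disuse muscle 1 of 9, against 48 of 341, and in serum 0 did in each comparison. miR-22-3p, at -0.17 and 0.03 against young muscle for old and disuse, lay between miR-486-5p (-0.50 and -0.15) and miR-133a-3p (0.10 and 0.22), the 2 miRNAs above it in mean share of muscle counts.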

How the data were processed

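The members and lists were chosen with earlier results of these data known. The authors deposited raw, unscaled counts for each mature miRNA in each library, made with Bowtie on mm10 per the submitters' processing notes. The last column lacks a cell for 488 miRNAs and so could not be recorded as counts throughout. These 488 were not used, and the deposited table's other 695 miRNAs, with counts for all 29 libraries, were. Library totals, shares and ranks therefore leave out the 488. All 29 columns matched a sample title. Per the labels' protocols, libraries (TruSeq small RNA kit, at most 15 PCR cycles) were made from 10 ng of serum RNA or 2 µg of muscle RNA, so input differs between the sources. Nothing read here states the aligner's version, the annotation or how multiple matches were handled.

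Tests used edgeR 4.0.16 in R 4.3.3 (quasi-likelihood, TMM factors, filterByExpr by group, Benjamini-Hochberg adjustment, threshold 0.05), with the 15 muscle libraries in a fit, the 14 serum libraries in another and all 29 for differences between sources. DESeq2 1.42.0 and limma 3.58.1 served as alternatives. SE is the log2 fold change divided by the square root of F, and log2 CPM used a prior count of 2. Correlation p-values came from 100000 permutations. Named miRNAs were both miR-22 arms, the most abundant miRNAs of each source, the 5 most alike in level, and in each list those past the threshold and otherwise up to 4 of the highest CPM. On simulated counts for old against young muscle (350 miRNAs tested), 63.3% of changes of 1 on the log2 scale were recovered and 98.1% of changes of 2. For old against young serum (162 tested), 34.6% of changes of 1 and 95.5% of changes of 2 were recovered. Each rate pools all tested miRNAs that were given such a change in the simulation. The simulation set the same spread beyond counting noise for every miRNA in both sources, so the rates do not measure the power in these data. The power for either miR-22 arm was not tested. Over 56 pairs of libraries of a group, the chi-square of their counts never fell below 13.4 per degree of freedom, beyond counting noise. Each library was counted once. This value cannot tell whether libraries share an animal, since separate libraries of 1 animal can also differ beyond counting noise. The results of 1 further list are not reported here. Of the 695 miRNAs, 602 matched a RefSeq mature sequence.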

Additional observations from a re-analysis of the deposited data

Results flagged for a closer look

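miR-22-5p was at 22.6 CPM (4 counts) in old serum 3 and at 0 in the other old serum libraries. This gap marked the library by its distance from the rest of the group, but the value rests on 4 counts. The 0 counts in old serum 1 and 4 allow up to 37.7 and 66.4 CPM, above that value. The 0 count in old serum 2, a deeper library, allows up to 11.5 CPM, below it. Of 18 sets of values examined for both arms and their ratio, this was the only one marked. Where all other values of a set are 0, any value above 0 is marked, so the usual chance rate of about 1 in 20 does not hold here.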

How the results depend on the processing

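miR-22-3p passed the threshold in none of the 8 comparisons under any alternative run. Its log2 fold change kept its sign under all of them for old against young muscle (-0.38 to -0.02), old against disuse muscle (-0.28 to -0.06), old against young serum (0.06 to 0.43), old against disuse serum (0.18 to 0.38) and the age change in serum minus muscle (0.12 to 0.63). The near-zero values turned sign, and the cause was not tested. Disuse against young muscle was -0.16 with upper-quartile factors, -0.05 with library totals, -0.04 (-0.035) with DESeq2's size factors and in DESeq2, -0.0224 without the 5 most abundant other muscle miRNAs, and -0.0786 to 0.11 leaving out a library. Disuse against young serum was 0.05 (0.0547) with no filter, 0.06 (0.058) with a filter of 10 CPM, 0.0024 with only the 2 groups, and -0.22 to 0.14 leaving out a library. The disuse change in serum minus muscle was -0.0331 with upper-quartile factors, -0.15 with library totals, -0.16 with a filter of 10 CPM, and -0.22 to 0.21 leaving out a library. The arm ratio of old against disuse serum, 0.37, was -0.0476 with a pseudocount of 2 and -0.12 to 0.90 leaving out a library. The serum to muscle ratio of 0.902 became 0.535 without the abundant miRNAs, an alternative chosen after seeing the data, since fewer muscle counts then remain, and was 0.846 to 0.939 leaving out a library. Upper-quartile factors moved the median of all miRNAs to -0.21 for old against young muscle. The number of miRNAs called ran from 8 to 36 there, 0 to 2 for disuse against young muscle, 5 to 18 for old against disuse muscle, 1 to 21 for old against young serum, 0 to 5 for disuse against young serum, 0 to 6 for old against disuse serum, 0 to 11 for the age change between sources and 0 to 5 for the disuse change. Same-numbered libraries of different groups within a source did not consistently deviate together (correlations of deviations -0.32 to 0.45). Serum and muscle libraries of the same number were not compared, so whether they share an animal was not tested. The fits over all 29 libraries treat them as separate samples. With the replicate block miR-22-3p was at -0.15 for old and 0.04 for disuse against young muscle, and no call of its own changed. Serum depth limits miR-22-5p, which did not pass the filter in the serum fit.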
